A study of Mus musculus with 6 samples.

Results

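The immediate early and AP-1 genes followed here are Fos, Fosb, Jun, Junb, Jund, Egr1, Ier2, Dusp1, Atf3 and Nr4a1, 10 of the 45706 genes of the count table. They were chosen by symbol, as genes that cells switch on within minutes of handling or of a signal. All 10 passed the low count filter that left 15184 genes for testing. Expression was profiled by RNA-seq in sorted LSK cells (Lin- Sca-1+ c-Kit+), the bone marrow compartment of hematopoietic stem cells and multipotent progenitors, with 1 library for each of 6 mice. The comparison asks which transcripts change early after loss of Setd1b, a histone H3K4 methyltransferase.

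The Ctrl group held 3 mice heterozygous for the conditional allele, Setd1b HET (FD/+; RC/+), named AI03, AI54 and AI56. The cKO group held 3 homozygous mice, Setd1b HOM (FD/FD; RC/+), named AH74, AI02 and AI55. The study calls the groups littermates but does not say which mice shared a litter. All were C57BL/6 males, aged 16 weeks except AH74, which was 17 weeks old. Every mouse carried 1 Rosa26-Cre-ERT2 allele, which is expressed in cells throughout the body, and received tamoxifen by gavage. The labels give 4.5 mg a day for 4 days and, after a pause of 3 days, for 2 more, while the text of the study gives fewer doses. Bone marrow was taken 3 days after the last gavage, and by design the induced Ctrl mice also lose 1 functional copy of Setd1b. Lineage-positive cells were depleted, and the LSK cells of each mouse were sorted and stored frozen. The times from killing to sorting are not given in the sources used here.

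Immediate early genes are transcribed without new protein synthesis when kinase cascades, above all the MAPK pathway, activate factors such as SRF and CREB that are already bound at their promoters. Fos and Jun proteins pair to form AP-1, which binds DNA and drives later genes, while Dusp1 and similar phosphatases switch the kinases off again. Their transcripts are short-lived, and in tissue that has been dissociated, stained and sorted they are known to rise as a response to the procedure.

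The total count per library ranged from 13003573 to 21277519, with 13003573 to 21277519 in Ctrl mice and 14260925 to 15265730 in cKO mice. The library numbers fall into 2 runs, called series here, with AI03, AI02 and AI55 in series 1 and AI54, AI56 and AH74 in series 2. The sources used here do not say what the runs mark. AH74 was the only cKO mouse of series 2 and the only mouse aged 17 weeks, so that within the cKO group the mouse, its age and its series cannot be told apart. The Ctrl mice stood in both series. The gene-level count of Setd1b did not fall with the label: it was 213 ± 16.2 CPM in Ctrl (SD, n = 3) and 292 ± 21.1 CPM in those labelled cKO (SD, n = 3), with a log2 fold change of 0.46 (adjusted p = 0.00146, edgeR). CPM are read counts scaled to the size of the library. The count covers the whole gene rather than the deleted exon. The genes of the sort were present in all libraries, with Kit at 395 to 514 CPM and Ly6a, which encodes Sca-1, at 35.8 to 56.3 CPM. Of the lineage antigens gated out, Cd3e, Cd8a and Ly6g had at most 2 counts in any library. Cd4 (17 to 53 counts), Klrb1c (9 to 38 counts) and Itgam (468 to 870 counts) were detected in every library, and Trbc1 in all except AH74 (34 to 87 counts in Ctrl mice and 0 to 7 in cKO mice).

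Sequence just upstream of the start site is shown for Fos, Fosb and Dusp1, because among the genes at 10 CPM or more Fos and Fosb differed most between mice, and Dusp1 holds the only complete CRE found in the group. The start site of Dusp1 in RefSeq lies 47 bases inside the gene model of the count table, and that of Atf3, which is searched but not shown, 34706 bases inside. A CRE (TGACGTCA) is bound by CREB and ATF family proteins, and TGACG is its core. Capitals mark the CRE, its core and, in Fosb, an EGR site. The sequences are from RefSeq on GRCm38.p6, 5′ to 3′ on the strand of the gene. The Fos sequence is chr12:85473760-85473889 (plus strand), which ends at the base before the start site. That of Fosb is chr7:19310046-19310175 (minus strand), which also ends at the base before the start site. For Dusp1 the sequence is chr17:26508543-26508672 (minus strand), from 200 to 71 bases upstream.
Fos: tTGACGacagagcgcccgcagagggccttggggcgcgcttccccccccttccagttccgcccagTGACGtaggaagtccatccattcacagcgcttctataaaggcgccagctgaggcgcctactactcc
Fosb: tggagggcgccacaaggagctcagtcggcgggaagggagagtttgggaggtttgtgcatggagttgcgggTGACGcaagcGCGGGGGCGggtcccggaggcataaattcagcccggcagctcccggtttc
Dusp1: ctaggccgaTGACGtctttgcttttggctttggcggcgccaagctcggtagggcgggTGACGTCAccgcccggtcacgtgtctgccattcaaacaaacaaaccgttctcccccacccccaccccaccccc

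Windows of 250 bases upstream were at hand for 8 of the 10 genes, all except Egr1 and Ier2, and were searched on both strands. The core TGACG was found in 6 of the 8 (Fos, Fosb, Junb, Dusp1, Atf3 and Nr4a1) and in 17.7% of 32817 windows of the same length. A complete CRE, which contains the core, was found in Dusp1 and in 1.55% of windows. The AP-1 site TGACTCA was in none of the 8 and in 4.46% of windows. The CArG box, the site of SRF, was in none of the 8 and in 1.47% of windows. An EGR site (GCGTGGGCG or GCGGGGGCG) was in Fosb and Nr4a1 and in 3.06% of windows. Matches of letters describe these windows and not binding. Sites farther upstream, and any site of Egr1 or Ier2, were not searched.

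None of the 10 genes differed between cKO and Ctrl past the threshold, an adjusted p of 0.05 in edgeR's quasi-likelihood test over all 15184 genes. Over all genes tested, 1164 did (7.67%), 589 higher and 575 lower in cKO. At an unadjusted p under 0.05 the count was 3 of the 10 (Jun and Nr4a1 with positive and Dusp1 with negative log2 fold changes) and 3470 of the 15184. DESeq2 called none of the 10 either. The median log2 fold change of the 10 was 0.04, with 5 of 10 above 0, against 0.00 over all genes tested. Without AH74 that median was -0.22, and with the library series as a covariate it was 0.16. Their values differed more between the 3 cKO mice, in which AH74 lay high and AI02 low for most genes. A lower level in bulk RNA can come from fewer cells that express a gene or from less RNA per cell, which cannot be told apart.

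**Figure D1:**
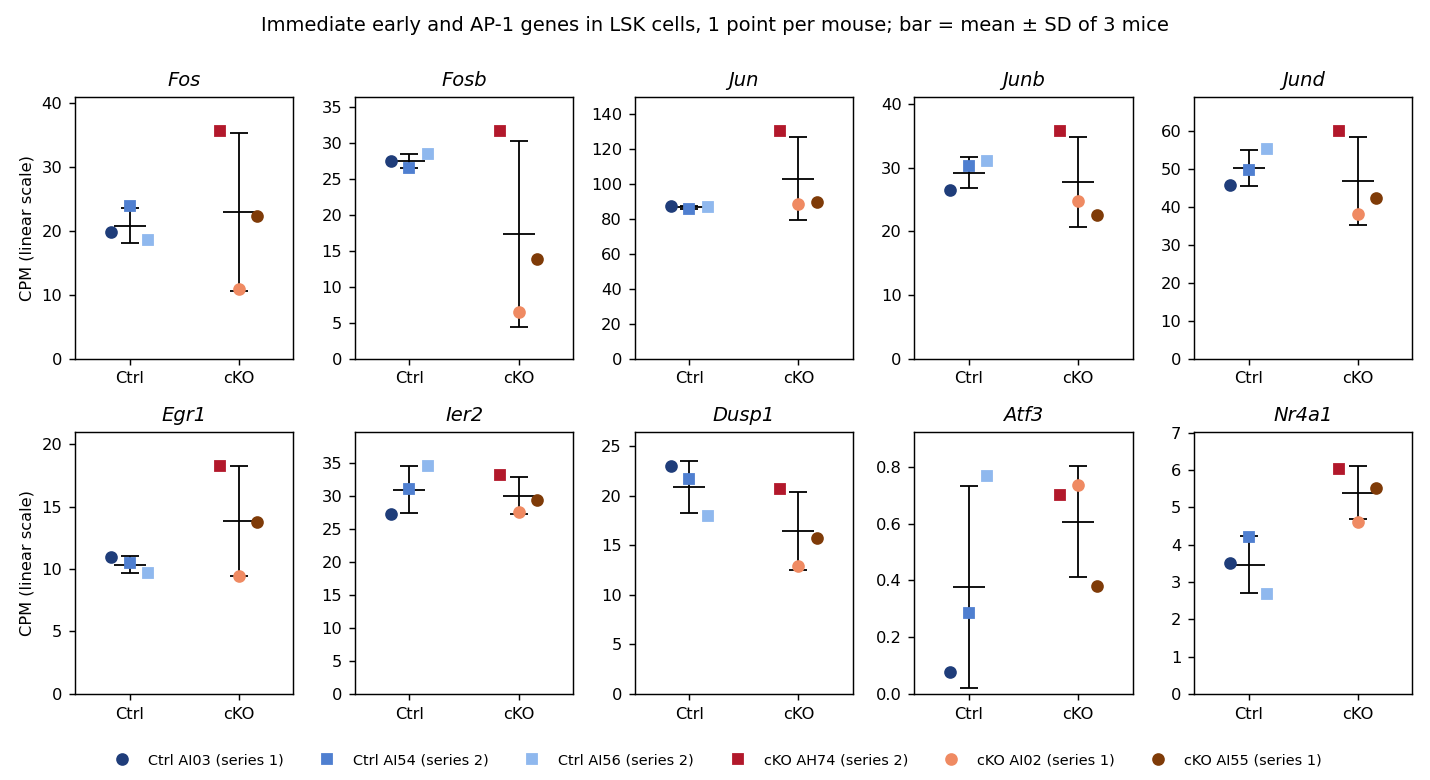
CPM (TMM-scaled, linear axis from 0) of the 10 genes, with 1 point per mouse, shaped by library series, and bars for the mean ± SD of 3 Ctrl and 3 cKO mice. In 7 of the 10 panels AH74 (dark red square) is the highest point, and for Fos and Fosb the cKO points span 10.9 to 35.6 and 6.43 to 31.6 CPM.

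Fos and Fosb encode the Fos partners of AP-1, which bind DNA only as a pair with a Jun protein. Fos (chr12:85473890-85477273, plus strand) stood at 19.8, 23.9 and 18.6 CPM in Ctrl mice AI03, AI54 and AI56 and at 35.6, 10.9 and 22.3 CPM in cKO mice AH74, AI02 and AI55. The cKO values enclosed the Ctrl values on both sides, and the highest cKO value was 3.26 times the lowest. The log2 fold change of Fos was 0.13 ± 0.27 (SE, n = 3 each), with a 95% interval from -0.44 to 0.71 (adjusted p = 0.819, edgeR). It was -0.34 within series 1 and 0.75 within series 2, and -0.33 in a fit without AH74.

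Fosb (chr7:19302721-19310045, minus strand) was nearly level among the Ctrl mice, at 27.5, 26.4 and 28.3 CPM in AI03, AI54 and AI56. In the cKO mice it stood at 31.6 CPM in AH74, 6.43 CPM in AI02 and 13.8 CPM in AI55. AH74 thus lay above all Ctrl mice and the other cKO mice below all of them. The log2 fold change was -0.67 ± 0.34 (SE), with an interval from -1.39 to 0.05 (adjusted p = 0.251, edgeR). Without AH74 it was -1.44 and past the threshold (adjusted p = 0.0027, edgeR). With all 6 mice it also passed in edgeR when no filter on low counts was used (-0.67, adjusted p = 1.03e-05, edgeR). DESeq2, run without that filter, did not call it (-0.67, adjusted p = 0.637, DESeq2). The call of Fosb thus turned on AH74 and, within edgeR, on that filter. The difference was -1.53 within series 1 and 0.21 within series 2.

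The 3 Jun genes can pair with each other or with Fos proteins: Jun and Junb are induced by signals, while Jund is known for a steadier level. Genes on the opposite strand overlap each of them, and Dusp1 as well, and the counting by strand keeps these apart. Jun (chr4:95049034-95052222, minus strand, 1 exon) was the most even gene of the group in Ctrl mice, at 87.2, 85.3 and 86.8 CPM in AI03, AI54 and AI56. It stood at 130.3, 88.7 and 89.7 CPM in AH74, AI02 and AI55. The groups did not overlap, but AI02 and AI55 lay only slightly above the highest Ctrl mouse. Its log2 fold change was 0.25 ± 0.12 (SE), with an interval from 0.0045 to 0.50 (adjusted p = 0.211, edgeR). Without AH74 it was 0.04 (adjusted p = 0.812, edgeR).

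Junb (chr8:84976909-84978748, minus strand) stood at 26.5, 30.3 and 31.03 CPM in AI03, AI54 and AI56 and at 35.8, 24.8 and 22.6 CPM in AH74, AI02 and AI55. As for Fosb, AH74 was above all Ctrl mice and the other cKO mice below them. Jund (chr8:70697739-70700616, plus strand, 1 exon) had 45.7, 49.7 and 55.2 CPM in AI03, AI54 and AI56 and 60.1, 38.1 and 42.4 CPM in AH74, AI02 and AI55, again with AH74 above and the other cKO mice below all Ctrl mice. The log2 fold changes were -0.08 ± 0.15 for Junb (interval -0.39 to 0.23, adjusted p = 0.795, edgeR) and -0.10 ± 0.14 for Jund (interval -0.39 to 0.19, adjusted p = 0.714, edgeR). Both changed sign between series, from -0.16 to 0.22 for Junb and from -0.18 to 0.20 for Jund.

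Egr1, a zinc finger factor induced through SRF, and Ier2, a small nuclear protein of the early response, stand for the arm outside AP-1. Egr1 (chromosome 18) had 10.9, 10.5 and 9.66 CPM in AI03, AI54 and AI56 and 18.2, 9.45 and 13.8 CPM in AH74, AI02 and AI55. AH74 and AI55 lay above the Ctrl mice and AI02 just below them. The log2 fold change was 0.41 ± 0.20 (SE), with an interval from -0.0047 to 0.83 (adjusted p = 0.224, edgeR). Without AI02 it was 0.63 and just past the threshold (adjusted p = 0.0498, edgeR).

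Ier2 (chr8:84661331-84662852, minus strand, 1 exon) did not share this spread. It had 27.3, 30.99 and 34.5 CPM in AI03, AI54 and AI56 and 33.1, 27.6 and 29.4 CPM in AH74, AI02 and AI55, so that the groups covered nearly the same range. Its log2 fold change was -0.05 ± 0.11 (SE), with an interval from -0.28 to 0.19 (adjusted p = 0.855, edgeR).

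Dusp1 encodes a nuclear phosphatase that inactivates p38, JNK and ERK kinases, and Nr4a1 an orphan nuclear receptor that is a quick reporter of antigen and growth factor signals. Dusp1 (chr17:26505590-26508519, minus strand) had 23.0, 21.6 and 17.9 CPM in AI03, AI54 and AI56 and 20.7, 12.9 and 15.7 CPM in AH74, AI02 and AI55. Only AH74 among the cKO mice lay within the Ctrl range. The log2 fold change was -0.34 ± 0.16 (SE), with an interval from -0.68 to -0.0026 (adjusted p = 0.216, edgeR). It was -0.68 within series 1 and 0.07 within series 2.

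Nr4a1 (chr15:101266846-101274792, plus strand) came nearest to a difference by genotype. It had 3.52, 4.19 and 2.69 CPM in AI03, AI54 and AI56 (46, 88 and 42 counts) and 6.03, 4.62 and 5.53 CPM in AH74, AI02 and AI55 (86, 69 and 87 counts). Every cKO mouse lay above every Ctrl mouse. The log2 fold change was 0.63 ± 0.25 (SE), with an interval from 0.10 to 1.16 (adjusted p = 0.143, edgeR). It was 0.51 within series 1 and 0.82 within series 2, and from 0.47 to 0.80 over 14 other settings, in none of which it passed the threshold (adjusted p from 0.111 to 0.350).

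Atf3, a stress-induced partner of Jun proteins, was close to the limit of detection. It had 1, 6 and 12 counts in AI03, AI54 and AI56 and 10, 11 and 6 counts in AH74, AI02 and AI55. With such counts the groups overlapped and the interval of its log2 fold change of 0.65 was wide, from -0.80 to 2.10 (adjusted p = 0.629, edgeR), so that a difference was not detectable at this depth. Its gene spans chr1:191170296-191218039 on the minus strand.

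Non-overlapping groups were seen for 2 of the 10 genes, Jun and Nr4a1, beside 27.3% of all genes tested. For these the exact two-sided permutation test gave p = 0.1, the smallest value that 3 against 3 mice can give. For the other 8 genes its p lay between 0.2 and 1.

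**Figure D2:**
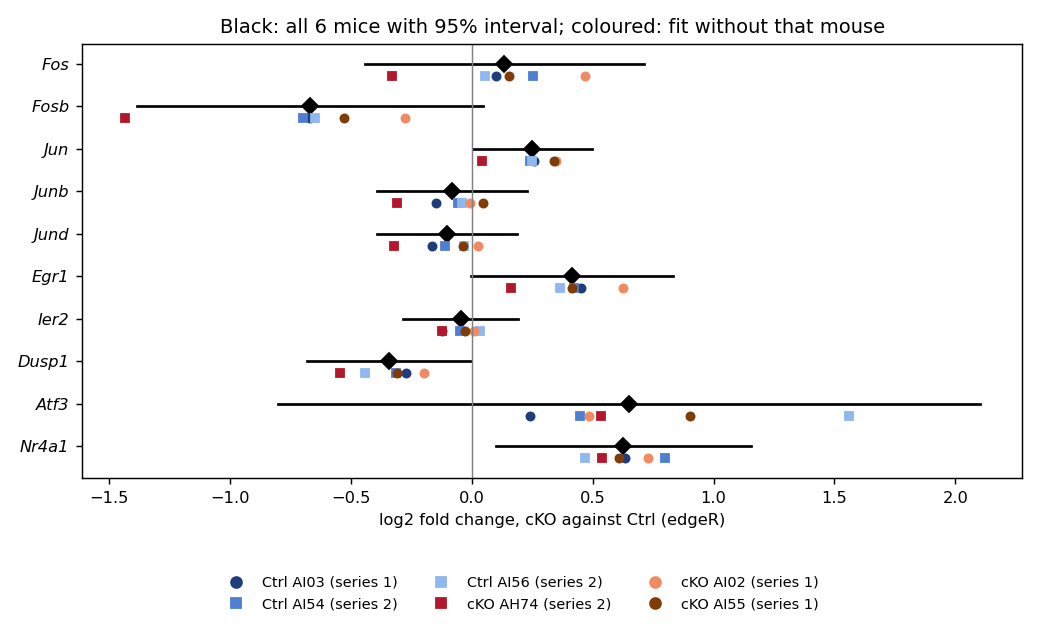
Log2 fold change, cKO against Ctrl, of each gene with all 6 mice (black diamond, line for the 95% interval) and in fits without 1 mouse (coloured symbol of the mouse left out). The fit without AH74 (dark red square) is the lowest for 7 genes, and takes Fosb to -1.44 and Fos from 0.13 to -0.33.

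Divided by exon length, Jun had the highest level of the group, with a mean of 29.7 CPM per kb over the 6 libraries (range 26.8 to 40.9). Ier2 followed with 20.0 (17.9 to 22.7), Jund with 16.9 (13.2 to 20.9) and Junb with 15.5 CPM per kb (12.3 to 19.5). The ranges of these last 3 overlapped, so that neighbours in this order were not apart beyond their spread. Fos had 9.30 CPM per kb (4.64 to 15.2), Dusp1 6.91 (4.79 to 8.51) and Fosb 5.96 (1.71 to 8.43), again with overlapping ranges. Egr1 at 2.70 CPM per kb and Nr4a1 at 1.79 CPM per kb were lower, and Atf3 at 0.228 CPM per kb was the lowest.

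The spread between mice was then measured as the SD of log2 CPM within each genotype. Pooled over both groups it had a median of 0.27 over the 10 genes, against 0.11 over the 9522 genes with a mean of at least 10 CPM. Of the 8 genes followed here that reach that level, 7 lay above the 90th percentile of those genes, which was at an SD of 0.21. Fosb (0.81) was at percentile 99.9, Fos (0.62) at 99.6 and Egr1 (0.34) at 98.3, while Ier2 (0.15) was at 73.0.

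This spread lay mostly in the cKO group. Over the 8 genes at 10 CPM or more the median SD was 0.13 among Ctrl mice and 0.35 among cKO mice. Over the 9522 genes of that level the medians were 0.10 and 0.097. Among the Ctrl mice, the SD was 0.05 for Fosb, 0.19 for Fos, 0.09 for Egr1 and 0.02 for Jun. Among the cKO mice it was 1.14 for Fosb, 0.85 for Fos, 0.47 for Egr1 and 0.32 for Jun. Counting error alone would give an SD of about 0.08 for Fosb and for Fos, 0.105 for Egr1 and 0.04 for Jun. The Ctrl SDs of Fosb, Egr1 and Jun lay below these values. For these genes a ratio of the cKO to the Ctrl SD is therefore inflated. For Dusp1 the SD was 0.19 in Ctrl and 0.34 in cKO, and for Ier2 0.17 and 0.13. The SD was larger in cKO for 7 of the 10 genes, against 46.4% of all genes tested, and more than 2 times larger for 6 (Fos, Fosb, Jun, Junb, Jund and Egr1), against 18.5%. These comparisons of SDs, and those of single mice, were chosen after the values had been seen and are given without a test. Without AH74 the SD was larger in cKO for 4 of the 10, and without AI02 for 7.

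**Figure D3:**
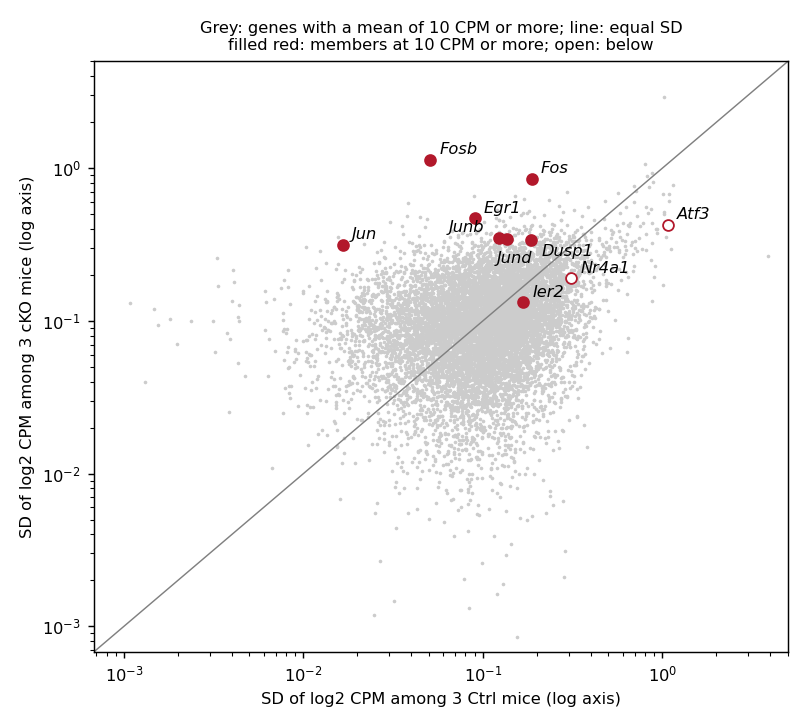
SD of log2 CPM among 3 Ctrl mice (x, log axis) and among 3 cKO mice (y, log axis), with the 9522 genes of at least 10 CPM in grey, the 8 genes followed here that reach this level as filled and Nr4a1 and Atf3 as open circles. Fosb, Fos, Jun, Egr1, Junb, Jund and Dusp1 lie above the line of equal SD, and Ier2, Nr4a1 and Atf3 below it.

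The cKO mice differed in a common direction. AH74 was the highest of the 6 libraries for 7 of the 10 genes (Fos, Fosb, Jun, Junb, Jund, Egr1 and Nr4a1), against 19.8% of all genes tested. AI02 was the lowest for 5 (Fos, Fosb, Jund, Egr1 and Dusp1), against 14.3%. Averaged over the 8 genes with at least 10 CPM, AH74 deviated from the mean of its group by 0.50 on the log2 scale, with 8 of 8 genes above it. AI02 deviated by -0.44, with 0 of 8 above, and AI55 by -0.06, with 2 of 8 above. The Ctrl mice lay at -0.03 (AI03, series 1), 0.03 (AI54, series 2) and -0.0013 (AI56, series 2). Their single genes lay from -0.17 to 0.15 in AI03, from -0.05 to 0.21 in AI54 and from -0.21 to 0.16 in AI56. The part of the series in these values was not tested. Between AH74 and AI02 the log2 difference was 2.28 for Fosb, 1.69 for Fos, 0.94 for Egr1, 0.67 for Dusp1, 0.66 for Jund, 0.56 for Jun, 0.53 for Junb and 0.26 for Ier2. Atf3 was the exception, at -0.06.

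**Figure D4:**
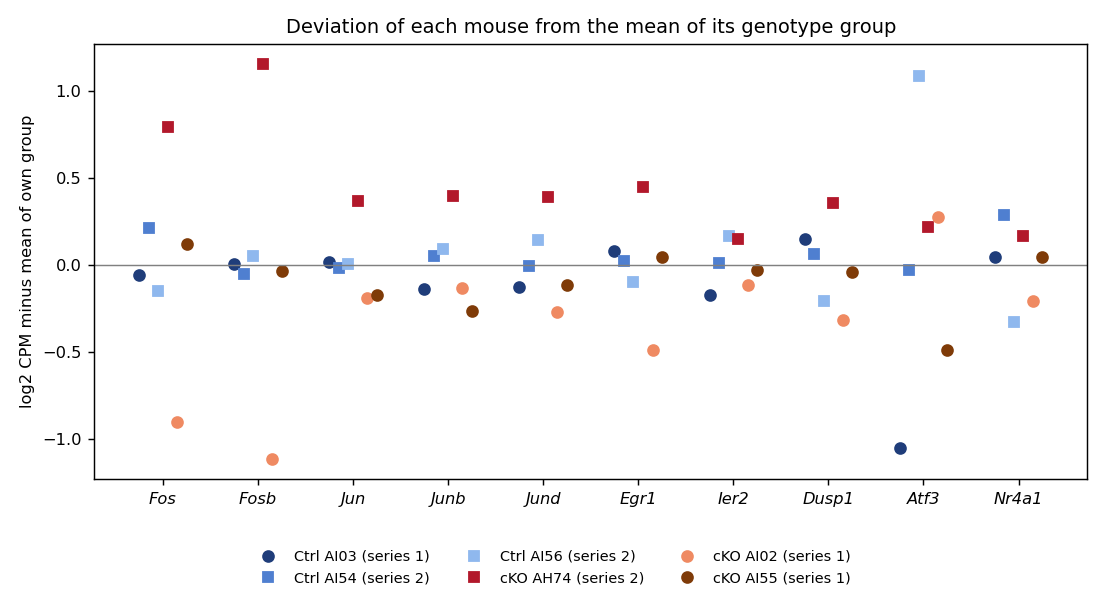
Log2 CPM of each mouse minus the mean of its genotype group, for the 10 genes, with 1 symbol per mouse and a line at 0. AH74 lies above 0 for every gene and AI02 below 0 for all except Atf3, while the Ctrl mice stay between -0.21 and 0.21 for the first 8 genes.

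The genes moved together to different degrees. Over the 6 libraries, after centring within genotype, the Pearson r with the mean of the other members at 10 CPM or more was 0.98 for Fosb, 0.94 for Egr1, 0.93 for Fos, 0.91 for Jun and Jund, 0.84 for Dusp1, 0.75 for Junb and 0.61 for Ier2. These values describe 6 libraries that share the contrast between AH74 and AI02. Outside the lists, genes most like the mean included Pomt2 (r = 0.997) and Trim47 (r = 0.996), and 183 of 9522 genes had an r above 0.9. Trim47 had 7.88, 8.25 and 7.87 CPM in AI03, AI54 and AI56 and 22.9, 11.8 and 14.7 CPM in AH74, AI02 and AI55. It was also higher in cKO (log2 fold change 1.04, adjusted p = 0.00561, edgeR).

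The wider immediate early response was followed in lists of other genes, none of which holds a member. Of the other AP-1 dimer partners, which include Batf, Maf and Atf genes, 10 of 11 were tested and 0 differed past the threshold in edgeR, with 0 at an unadjusted p under 0.05. The nearest was Fosl2, a Fos relative, at 22.2, 21.02 and 23.7 CPM in AI03, AI54 and AI56 and at 34.1, 23.2 and 24.6 CPM in AH74, AI02 and AI55 (log2 fold change 0.29, adjusted p = 0.225, edgeR). Of the 10, 2 were highest in AH74, Fosl2 among them, against 19.8% of all genes tested.

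Among other immediate early transcription factors, 14 of 17 were tested, 1 rose and 1 fell, with a median log2 fold change of 0.08. At an unadjusted p under 0.05 in edgeR the count was 3 of the 14. Myc, the regulator of growth and biosynthesis, fell. It had 475, 482 and 515 CPM in AI03, AI54 and AI56 and 387, 363 and 386 CPM in AH74, AI02 and AI55, with no overlap (log2 fold change -0.37, adjusted p = 0.0017, edgeR), and it passed the threshold in all 14 other settings. Csrnp1, a nuclear factor induced by axin, had 13.8, 12.9 and 13.3 CPM in AI03, AI54 and AI56 and 18.2, 18.4 and 18.1 CPM in AH74, AI02 and AI55 (log2 fold change 0.45, adjusted p = 0.0341, edgeR), a call that was lost whenever any 1 mouse was left out and with the series as a covariate (log2 fold changes 0.43 to 0.47). Unlike Fos and Fosb, both were even among the cKO mice. Over the whole list, however, AH74 was the highest library for 8 of the 14, against 19.8% of all genes tested.

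Of the other immediate early genes, which encode RNA-binding, signalling and survival proteins, 18 of 20 were tested, 3 rose and 0 fell. Over all genes tested 7.67% were called. At an unadjusted p under 0.05 in edgeR the count was 9 of the 18, against 3470 of all 15184 genes tested. The median log2 fold change was 0.24, with 14 of the 18 above 0. Ppp1r15a, which helps to reverse the stress-induced stop of translation, had 41.9, 33.8 and 40.6 CPM in AI03, AI54 and AI56 and 57.4, 45.8 and 50.2 CPM in AH74, AI02 and AI55 (log2 fold change 0.40, adjusted p = 0.0307, edgeR). Mcl1, an inhibitor of apoptosis, had 167, 190.3 and 170.2 CPM in AI03, AI54 and AI56 and 201, 206 and 212 CPM in AH74, AI02 and AI55 (log2 fold change 0.23, adjusted p = 0.0491, edgeR). Socs3, a feedback inhibitor of cytokine signals, had 4.06, 15.0 and 12.5 CPM in AI03, AI54 and AI56 and 23.5, 21.3 and 18.5 CPM in AH74, AI02 and AI55 (log2 fold change 0.97, adjusted p = 0.0497, edgeR). In all 3 genes every cKO mouse lay above every Ctrl mouse, but the calls were not stable. Without AH74 none was past the threshold (log2 fold changes 0.31, 0.24 and 0.89, adjusted p 0.13, 0.078 and 0.15, edgeR). Ppp1r15a was also lost without AI54, AI56 or AI55. Mcl1 was lost without any 1 mouse other than AI54, with the size factors of DESeq2 and with the series as a covariate. Socs3 was lost without AI56, AI02 or AI55, with at least 10 counts in every library and with DESeq2. AH74 was the highest library for 11 of the 18, against 19.8% of all genes tested.

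The kinase cascade was followed in 2 lists, beside 7.67% called over all genes tested. The 12 MAPK feedback inhibitors were Dusp, Spry and Spred genes, only some of which are themselves induced by ERK. Of these, 0 of 12 differed past the threshold in edgeR, with 2 at an unadjusted p under 0.05. The nearest was Spred1 (log2 fold change 0.22, adjusted p = 0.0845, edgeR). Of 32 genes of the cascade and of SRF and CREB factors, 2 rose and 0 fell, with a median log2 fold change of 0.03. Here 7 of the 32 had an unadjusted p under 0.05 in edgeR. Elk3, an SRF partner, had 59.2, 61.1 and 60.5 CPM in AI03, AI54 and AI56 and 70.8, 79.8 and 73.8 CPM in AH74, AI02 and AI55 (log2 fold change 0.31, adjusted p = 0.019, edgeR). Rps6ka3, which encodes the kinase RSK2 downstream of ERK, had 115, 176 and 147 CPM in AI03, AI54 and AI56 and 188, 233 and 186 CPM in AH74, AI02 and AI55 (log2 fold change 0.46, adjusted p = 0.0291, edgeR). Both were highest in AI02, the mouse in which Fos and Fosb were lowest. AH74 was the highest library for 5 of the 12 feedback inhibitors and 5 of the 32 cascade genes, against 19.8% of all genes tested. The call of Elk3 was lost without AI56, AI02 or AI55, and that of Rps6ka3 without AI03, AI56, AI02 or AI55 and with DESeq2.

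Heat shock genes, which also rise when tissue is dissociated, were 12 of 13 tested, with Hspb1 at 0 counts in every library. None rose and 2 fell, with a median log2 fold change of -0.10, and 6 of the 12 had an unadjusted p under 0.05 in edgeR. Hsp90aa1, a cytosolic chaperone, had 778, 764 and 863 CPM in AI03, AI54 and AI56 and 671, 678 and 645 CPM in AH74, AI02 and AI55 (log2 fold change -0.27, adjusted p = 0.0174, edgeR). Hspd1, the mitochondrial chaperonin, had 234, 230.2 and 243 CPM in AI03, AI54 and AI56 and 156, 211 and 199 CPM in AH74, AI02 and AI55 (log2 fold change -0.32, adjusted p = 0.0411, edgeR). The call of Hsp90aa1 was lost without AI56 or AI55, and that of Hspd1 without any 1 mouse other than AI02. Averaged over the 12 genes, AH74 lay 0.17 above the mean of its group on the log2 scale and AI02 lay at -0.17, in the direction of the immediate early genes, though Hspd1 was lowest in AH74. Hspa1a (log2 difference between AH74 and AI02 of 1.71) and Hspa1b (1.56), near-identical inducible Hsp70 genes between which reads may be split, carried most of it. Without them the mean over the other 10 genes was 0.058 in AH74 and -0.032 in AI02. Of the 12 genes, 4 were highest in AH74, against 19.8% of all genes tested.

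**Figure D5:**
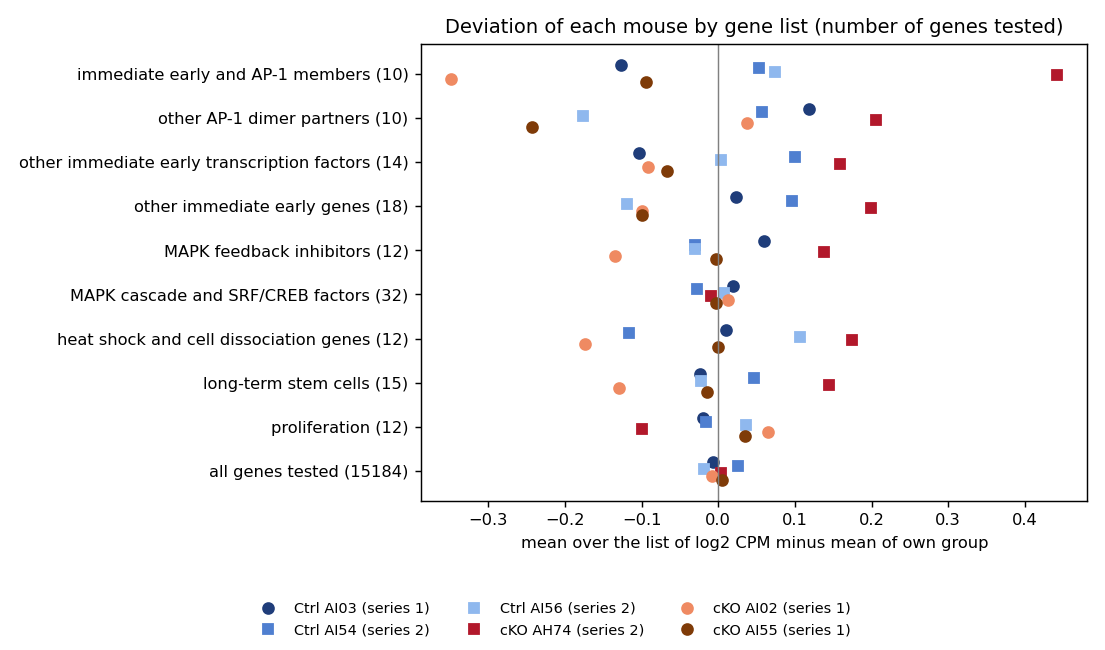
Mean over each of 9 gene lists and over all genes tested of log2 CPM minus the mean of the mouse's own genotype group, with 1 symbol per mouse, the number of genes tested in brackets and a line at 0. For the 10 members AH74 lies at 0.44 and AI02 at -0.35, for all genes tested every mouse lies between -0.02 and 0.03, and every point of the other 8 lists drawn lies between those of AH74 and AI02 for the members. Among marker lists not drawn, some went beyond that range, with AH74 at -1.37 for B and plasma cells and -0.61 for neutrophils (3 genes tested each). For erythroblasts (2 genes tested) AH74 lay at 0.44 and AI02 at -0.24.

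Other cell features moved with the genotype or with AH74. Of 15 markers of long-term stem cells 8 rose and 0 fell in cKO (6 to 8 rose with each mouse left out), with summed levels of 870.3 to 880 CPM in Ctrl mice and 1123, 953 and 970 CPM in AH74, AI02 and AI55, so that their sum was also highest in AH74. Of 12 proliferation genes 1 fell (0 without any 1 mouse other than AI55), and their sum was lowest in AH74 (3488 CPM, against 3689 to 3961 CPM in the other libraries). The gene that fell, Mcm5, had 155.4, 171.5 and 329.8 CPM in AH74, AI02 and AI55, against 342.8 to 360.8 CPM in Ctrl mice. Mcm5, Ccnb2, Ccna2 and Pcna were lowest in AH74, but Mki67 (1543 CPM, against 1627 CPM in AH74), Top2a and Tyms were lowest in AI54. None of the 4 genes of the LSK gate differed past the threshold in edgeR (1 at an unadjusted p under 0.05). Of 5 tested lineage antigens, Itgam rose (35.8 to 40.1 against 44.2 to 58.3 CPM, a call lost without AI03, AI54, AI02 or AI55) and Trbc1 and Trdc fell. Among markers of mature cells, 2 of 3 tested neutrophil genes (0 without AI56, AH74, AI02 or AI55 and 1 without AI03), 3 of 7 monocyte and macrophage genes, 2 of 3 B and plasma cell genes and 2 of 3 T and NK cell genes fell. The summed levels in Ctrl and cKO were 7.80 to 15.2 against 5.54 to 8.44 CPM for neutrophils, 66.1 to 90.5 against 37.1 to 48.2 CPM for monocytes and macrophages, 54.8 to 173 against 18.7 to 43.7 CPM for B and plasma cells, and 71.8 to 79.8 against 46.2 to 49.7 CPM for T and NK cells. All 4 sums were lowest in AH74, as was that of endothelial and stromal genes (14.24 CPM). Among the cKO mice AH74 had the highest sums for erythroblasts and megakaryocytes. These were 9.889, 7.036 and 6.925 CPM for erythroblasts in AH74, AI02 and AI55 (7.729 to 11.97 CPM in Ctrl). For megakaryocytes they were 114, 88.58 and 84.56 CPM (108.5 to 135.9 CPM in Ctrl). Of 2 erythroblast genes 0 differed past the threshold in edgeR (1 at an unadjusted p under 0.05), 1 of 4 megakaryocyte genes fell, and of 4 endothelial and stromal genes 1 rose and 2 fell. The part of any of these in the levels of Fos, Fosb and the other immediate early genes was not tested.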

How the data were processed

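RNA-seq was measured in LSK cells of 3 Ctrl and 3 cKO mice, each library from a separate mouse. Per the labels and the methods of the study, the authors aligned stranded total RNA reads with GSNAP to GRCm38 and counted them per Ensembl gene with featureCounts 1.5.0, by strand. The deposited values are raw counts, without normalization or pooling. Gene symbols were matched by identifier to GENCODE, which named 98.8% of the genes.

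Genotypes were compared in R 4.3.3 with edgeR 4.0.16 (TMM, filterByExpr, quasi-likelihood test, genotype as the only term, Benjamini-Hochberg adjustment over 15184 genes). CPM were scaled by TMM, log2 CPM used a prior count of 2, and SE was the absolute log2 fold change over the square root of F. DESeq2 1.42.0 was an alternative, as were other normalizations, filters, trends in length or GC content, library series as a covariate and each mouse left out.

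The members and gene lists were chosen with earlier results of these data known. Named genes outside the members were, in each list, those past the threshold, up to 3 with the smallest adjusted p-values, or otherwise the gene with the smallest p-value, and the 3 genes most like the mean of the members. Some items are not reported here. Library series were read from the library numbers.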

Additional observations from a re-analysis of the deposited data

How the results depend on the processing

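Over the 139 values of the 10 log2 fold changes under other settings, 127 kept their direction and their side of the threshold, 4 passed it and 8 changed sign. The number of the 10 genes past the threshold was 0, but 2 with no filter on low counts (Fosb, log2 fold change -0.67, adjusted p = 1.03e-05, and Jun, 0.25, adjusted p = 0.0302, edgeR), and 0 to 1 with each mouse left out, namely Fosb without AH74 (-1.44) and Egr1 without AI02 (0.63). Why the filter moved Fosb and Jun was not tested. With each mouse left out, Fos ranged from -0.33 (without AH74) to 0.47, Junb from -0.31 to 0.048 (without AI55), Jund from -0.32 to 0.027 (without AI02) and Ier2 from -0.12 to 0.034 (without AI56, and 0.011 without AI02). With the series as a covariate Junb was 0.041, Jund 0.015 and Ier2 0.039. The count over all genes, 1164, was 513 at an adjusted p under 0.01 and 604 (without AI55) to 1125 with each mouse left out. It was 665 without AI56 and 739 without AH74. For the other signalling and heat shock lists together it was 9, 1 at an adjusted p under 0.01, and 1 (without AI56 or AI55) to 7 with each mouse left out, with 5 without AI03, 4 without AH74 and 4 without AI02. The median SD between mice was 0.21 (without AH74) to 0.31, beside 0.27. The genes highest in AH74 were 7, or 8 with counts per total count, settings chosen after seeing the data. No paired analysis was possible because the labels give neither shared replicate numbers nor litters. With 3 mice a group the 95% intervals of the log2 fold changes were wide for genes that varied between mice, from -1.39 to 0.05 for Fosb.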
